A study of Mus musculus with 14 samples.

Results

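MyoD and MyoG act on DNA as pairs with E proteins, and 10 genes that encode such partners or their inhibitors were examined for MyoD and MyoG binding in mouse muscle stem cells (MuSCs). The genes were the E proteins Tcf3, Tcf4 and Tcf12, the Id genes Id1, Id2, Id3 and Id4, and the Twist family genes Twist1, Twist2 and Msc. A gene was counted as bound in a library when a deposited peak carried its symbol, and as not bound otherwise. By this rule 3 of the 10 genes (Tcf12, Tcf4 and Id2) had a peak, with 17 of the 10303 peaks in all 12 ChIP-seq lists. In the whole series 4384 gene symbols of any type had a peak. The share of all genes that had a peak was not computed, so 3 of 10 is not read here as high or low.

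All mice were of wild-type genotype and carried a floxed mito-Dendra2 allele, which encodes a fluorescent mitochondrial protein, together with the Pax7-Cre(ERT2) driver. Tamoxifen (75 mg/kg on 5 days) switched the label on in Pax7-expressing cells, so the sorted cells are MuSCs and their progeny. At 2 days after an injection of 1.2% BaCl2 (50 µL) into the tibialis anterior, activated cells (ASCs; CD34-, Dendra2+, DAPI-) were sorted from the injured muscle, and quiescent cells (QSCs; CD34+, Dendra2+, DAPI-) from the opposite muscle, which received saline. With each antibody there were 3 libraries of ASCs and 3 of QSCs, which makes 4 groups. The study calls the libraries of a group biological replicates. Age, the number of animals per library and whether replicates are separate animals are not given in the sources used here. Nor is it given whether ASC and QSC libraries, or MyoD and MyoG libraries, come from the same animals. The main tests treated all libraries as independent, and the p-values measure only the spread between these libraries.

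The lists held 2262 to 2652 peaks per library in ASC MyoD, 605 to 916 in ASC MyoG, 139 to 174 in QSC MyoD and 120 to 167 in QSC MyoG. Each peak has a score, which is minus 10 times the log10 of its p-value from the MACS peak caller, and no listed score was below 50.0. Read depth is unknown, and a library with fewer reads can give fewer peaks and lower scores, so the absence of a peak means only that none was listed. Peak lists hold no expression values, so the sorted cells could not be checked against marker genes.

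E proteins are widely expressed basic helix-loop-helix (bHLH) factors. A dimer of an E protein with MyoD or MyoG binds the E-box, a short motif written CANNTG, of which MyoD favors CAGCTG and also binds CAGGTG. Id proteins have the helix-loop-helix but no DNA-binding basic region, and hold E proteins in dimers that cannot bind. Twist1, Twist2 and musculin (Msc) are bHLH factors that also pair with E proteins and oppose MyoD at muscle genes.

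The bases under the peaks were not analysed here. The RefSeq table of promoters (GRCm38.p6, the same assembly as mm10) had 9 start-site windows for 7 of the 10 genes. The missing entries are Tcf4, Id1 and Msc. Of the 9 windows of 250 bp before the start site, 4 held CANNTG, against 66.2% of the 32851 windows in the table. The form CAGCTG was in 2 of the 9 windows (13.001% of all windows), and the form CAGGTG, read on either strand, was in none of them (17.2% of all windows). Both strands were covered, and both of these forms are also counted under CANNTG. The windows with CAGCTG belonged to Id2 and Tcf12, both of which had MyoD peaks elsewhere, and they are printed 5′ to 3′ with the E-box in capitals to show the sequence that precedes the start sites of these bound genes. The Id2 stretch lies at chr12:25096093-25096342 on the minus strand, with the E-box starting 196 bp before the start site. The Tcf12 stretch, cut where the gene begins, lies at chr9:72111894-72112069 on the minus strand.
Id2: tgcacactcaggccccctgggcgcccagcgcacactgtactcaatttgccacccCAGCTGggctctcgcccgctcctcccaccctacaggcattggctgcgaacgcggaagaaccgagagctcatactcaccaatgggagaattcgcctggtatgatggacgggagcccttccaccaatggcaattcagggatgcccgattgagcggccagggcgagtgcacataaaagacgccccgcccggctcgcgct
Tcf12: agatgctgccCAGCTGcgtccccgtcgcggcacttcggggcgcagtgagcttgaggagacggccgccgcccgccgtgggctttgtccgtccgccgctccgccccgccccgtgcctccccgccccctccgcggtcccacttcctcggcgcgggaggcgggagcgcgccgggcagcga
No library had a peak overlapping either stretch or any of the other 7 windows. The share of all 32851 windows overlapped by a peak was not computed, so this absence does not set these windows apart.

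The 10 genes had peaks mainly with MyoD in ASCs. The number of peaks at these genes was 5, 5 and 5 in the 3 ASC MyoD libraries and 1, 0 and 0 in the QSC MyoD libraries. The ASC MyoG libraries had 0, 1 and 0, and each QSC MyoG library had none. The ASC MyoD values lay above all others, with a mean of 5 against 0.333 ± 0.577 (SD, n = 3 libraries) in QSC MyoD and the same mean and SD in ASC MyoG. Both differences, 4.67 peaks, had an exact two-sided permutation p-value of 0.1 (adjusted over 8 tests 0.133), the smallest that 3 libraries against 3 can give. With scores of at least 80 only, the difference between ASC MyoD and ASC MyoG was 3 peaks. Each ASC MyoD library had peaks at the same 3 genes (Tcf12, Tcf4 and Id2), against 1, 0 and 0 genes in QSC MyoD and 0, 1 and 0 in ASC MyoG (difference 2.67 genes in each case, exact permutation p-value 0.1, adjusted 0.133). The share among all genes with a peak was not computed per library, so these gene counts are not corrected for list length. For MyoG, ASCs exceeded QSCs by 0.333 peaks (exact permutation p-value 1) and rested on ASC MyoG replicate 2 alone, without which it was 0. The ASC minus QSC difference was larger for MyoD than for MyoG by 4.33 peaks (exact permutation of the factor labels within each state, p-value 0.1, adjusted 0.133). With QSC counts this low, that p-value was fixed by the ASC libraries alone. It repeats the test of ASC MyoD against ASC MyoG and gives no separate support for a difference between the factors in the response to injury. This comparison used raw counts and was not computed as a share of each list, so it is not corrected for list length. Whole lists differed in the same direction. For MyoD their mean length fell from 2403 peaks after injury to 161 in quiescence, and for MyoG from 720 to 150. Whether the 4.33 peaks exceed what list length gives was not tested.

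ASC MyoD lists were also much longer than the others, so the share of each list was compared. Peaks at these genes made up 0.189%, 0.221% and 0.218% of the ASC MyoD lists and 0.585%, 0% and 0% of the QSC MyoD lists. The means were 0.209% ± 0.0179 and 0.195% ± 0.338 (SD, n = 3), and the difference of 0.0142 points was far smaller than the spread between QSC libraries (exact permutation p-value 1). The QSC value came from a single peak among 171 in replicate 1 (95% exact binomial interval 0.0148% to 3.22%, for counting error of peaks only), and the direction turned when replicate 2 or 3 of QSC MyoD was left out (-0.0833 points). The ASC and QSC shares overlapped in the full lists only through this peak. It is distal intergenic and scores under 80. The difference was 0.284 points without distal intergenic peaks, 0.339 points with scores of at least 80 and 0.209 points without QSC MyoD replicate 1. Each of these settings removes that peak and leaves every QSC MyoD share at 0%. The exact permutation p-value of 0.1 in each was thus fixed by the removal. The QSC MyoD lists are short, and the 95% exact binomial intervals of replicates 2 and 3 reached 2.62% and 2.10%. These values therefore do not show a difference in share. In ASC MyoG the share was 0%, 0.165% and 0%, below the ASC MyoD values by 0.154 points on average (exact permutation p-value 0.1, adjusted 0.133). With peaks of a score of at least 80 only, this difference was -0.00437 points. Without distal intergenic peaks it was 0.152 points, and the shares of the groups overlapped (exact permutation p-value 0.4). The 95% exact binomial intervals of the ASC MyoG shares reached 0.402%, 0.917% and 0.576% in replicates 1, 2 and 3. All of them contain the ASC MyoD shares.

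Overlapping peaks of the 6 libraries of an antibody were joined into regions. A region was called ASC-specific when at least 2 of the 3 ASC libraries and no QSC library had a peak in it. The 10 genes had 7 MyoD regions, of which 5 were ASC-specific, while 44.0% of all 4488 MyoD regions were. Of these 5, 4 had a peak in all 3 ASC libraries (55.7% of the 1976 ASC-specific MyoD regions did), and 3 lay in introns (35.0% of the 1976). With scores of at least 80 only, 3 of 4 regions were ASC-specific, against 50.6% of 1682 MyoD regions. The single MyoG region was not ASC-specific (9.42% of the 2198 MyoG regions were). Scores ranged widely among the regions, from just above the threshold to among the highest of the lists.

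**Figure D1:**
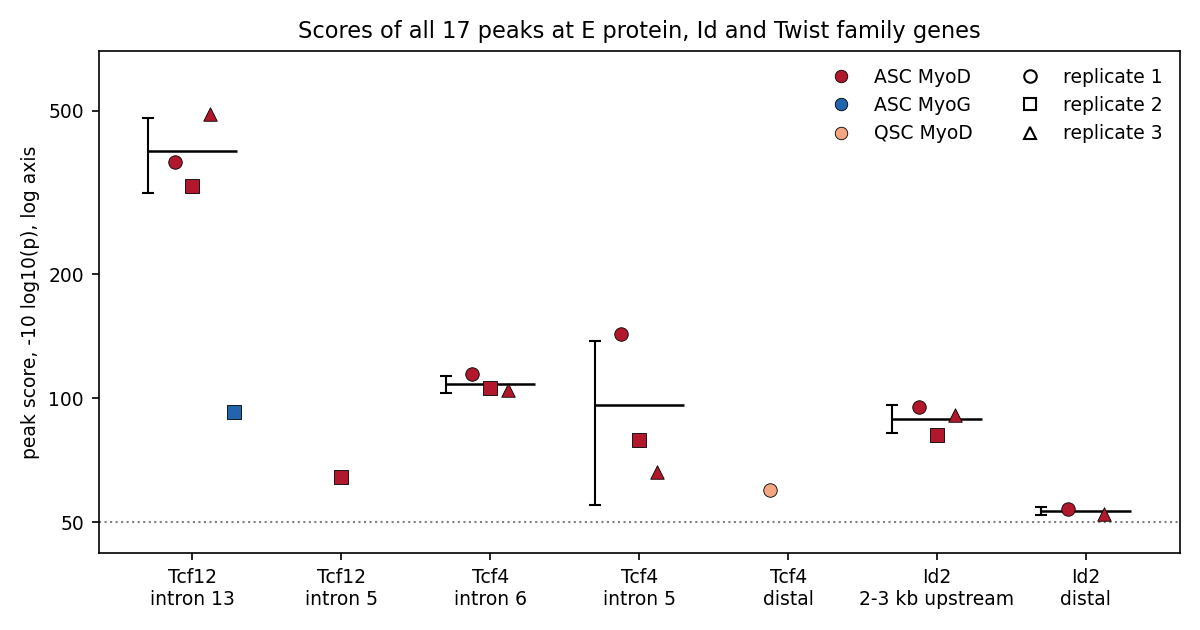
Score of each of the 17 peaks (y axis, minus 10 times log10 of the p-value, log axis) at the 7 regions (x axis). Color marks the group and symbol shape the replicate; horizontal lines are means over ASC MyoD libraries with the SD as a bar at the left, and the dotted line is a score of 50. Intron 13 of Tcf12 stands above all other regions in each ASC MyoD library.

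Tcf12 encodes HEB, an E protein that pairs with MyoD in muscle cells. It had the strongest MyoD region of the group (ENSMUSG00000032228, chromosome 9, 71874392 to 71875439), which the authors placed in intron 13 of 20. Its scores were 376, 329 and 490 in ASC MyoD replicates 1, 2 and 3 (mean 398 ± 82.7, SD, n = 3), and no QSC MyoD library had a peak there. These peaks ranked 27th of 2652, 21st of 2262 and 7th of 2296 in their lists. The region was number 10 of the 1976 ASC-specific MyoD regions by mean score rank, and its score was 2.62, 3.11 and 4.69 times that of the next peak of the group in the same library. All 3 peaks shared 874 bp, and their centers lay within 58 bp of each other.

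The Tcf12 intron 13 region was also the only one of the group with a MyoG peak. ASC MyoG replicate 2 listed a peak at 71874539 to 71875488 with a score of 92.5, ranked 76th of 605 in that list, and the other 5 MyoG libraries listed none. Of all MyoG regions with a peak in any ASC library, 12.4% had one in at least 2. Of all ASC-specific MyoD regions, 3.59% were overlapped by a peak of at least 1 ASC MyoG library, against 1 of the 5 described here. The region lies 237 kb from the 5′ end of this 267642-bp gene, at 88.5% of its length, and 21.2 kb downstream of the RefSeq start site nearest to the 3′ end. A further peak in intron 5 of Tcf12 (71990968 to 71991712) was listed in ASC MyoD replicate 2 only, with a score of 64.5, and did not meet the rule for an ASC-specific region. Of all MyoD regions with a peak in any ASC library, 48.4% had one in at least 2.

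Tcf4 encodes an E protein and is a different gene from the Wnt effector of the same alias. It had a pair of ASC-specific MyoD regions 6.81 kb apart (ENSMUSG00000053477, chromosome 18), at 34.6% and 36.6% of the length of this 344539-bp gene. The intron 6 region (69468991 to 69470100) had scores of 114, 106 and 104 in ASC MyoD replicates 1, 2 and 3 (mean 108 ± 5.30, SD, n = 3). The intron 5 region (69462268 to 69463207) had scores of 143, 79.1 and 66.2 (mean 96.3 ± 41.3). The intron 6 scores were thus close together, while those of intron 5 differed by 2.16 times and overlapped them in range, so the order of these regions is not resolved: intron 5 scored higher in replicate 1 and intron 6 in the other two.

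Tcf4 was also the only gene of the group with a QSC peak. It lay 21.9 kb upstream of the gene (chromosome 18, 69321162 to 69321833), was annotated as distal intergenic, and was listed in QSC MyoD replicate 1 alone with a score of 59.7, the 54th highest of 171. No ASC library had a peak there. Of the 406 MyoD regions with a peak in any QSC library, 10.1% had one in at least 2. No MyoG library had a peak at Tcf4. Tcf3, the remaining E protein gene and the source of E12 and E47, had no peak in any of the 12 libraries.

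**Figure D2:**
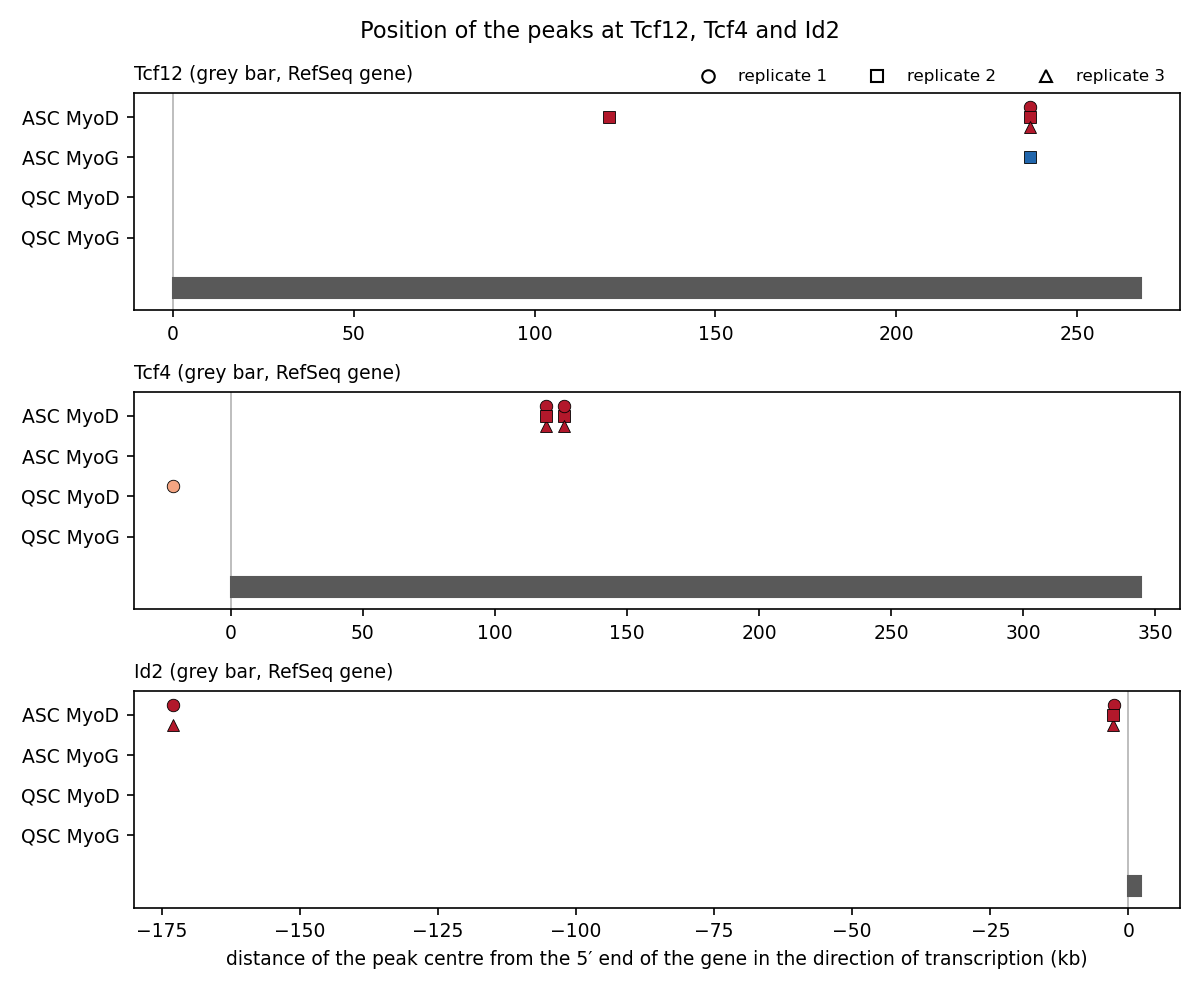
Peaks at Tcf12, Tcf4 and Id2 (1 symbol per peak, shape for the replicate) by group (y axis) against the distance of the peak center from the 5′ end of the gene (x axis, kb in the direction of transcription; negative is upstream). ASC MyoD peaks of all 3 replicates fall together at Tcf12 intron 13, at Tcf4 introns 5 and 6 and 2.75 kb upstream of Id2. The Tcf12 intron 5 peak is from replicate 2 only, and the distal Id2 region has no peak in replicate 2.

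Among the 4 Id genes, Id2 had MyoD peaks (ENSMUSG00000020644, chromosome 12). A region 2.75 kb upstream of its start site (25098356 to 25099328), annotated as a promoter at 2 to 3 kb, had scores of 95.01, 81.58 and 91.1 in ASC MyoD replicates 1, 2 and 3 (mean 89.2 ± 6.91, SD, n = 3). All 3 values were above the median of their list, by 1.27, 1.13 and 1.32 times, and 665 bp were common to the 3 peaks. This was the only one of the 7 regions that the authors' annotation placed in a promoter. Its range of scores lay below that of Tcf4 intron 6 and within that of Tcf4 intron 5.

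A distal region given to Id2 (25268586 to 25269605) lay 173 kb upstream, with Id2 still the nearest protein-coding gene. It was listed in ASC MyoD replicates 1 and 3 with scores of 53.9 and 52.4, close to the threshold of the lists, and not in replicate 2. It ranked 1949 of the 1976 ASC-specific MyoD regions, and it no longer met the rule without replicate 1 or replicate 3. No QSC or MyoG library had a peak at Id2.

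Id1, Id3 and Id4 had no peak under their names in any library. The authors' annotation gives each peak to 1 gene, so peaks within 100 kb of each gene were examined whatever gene they were given to. This window was chosen after the peaks had been seen. Around Id3, a pair of ASC-specific MyoD regions with peaks in all 3 libraries were given to its neighbor E2f2, which encodes a transcription factor of the cell cycle. One lay 29.2 kb beyond the end of Id3 (chromosome 4, 136174068 to 136175132, annotated as E2f2 promoter at 1 to 2 kb) with scores of 125, 177 and 120 (mean 141 ± 31.2). The other lay 19.8 kb beyond it (136164780 to 136165505, distal intergenic) with scores of 85.0, 59.7 and 54.2 (mean 66.3 ± 16.4). A further region, at 32.3 kb, was listed in ASC MyoD replicate 2 only with a score of 59.0. None of these regions had a QSC or MyoG peak.

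**Figure D3:**
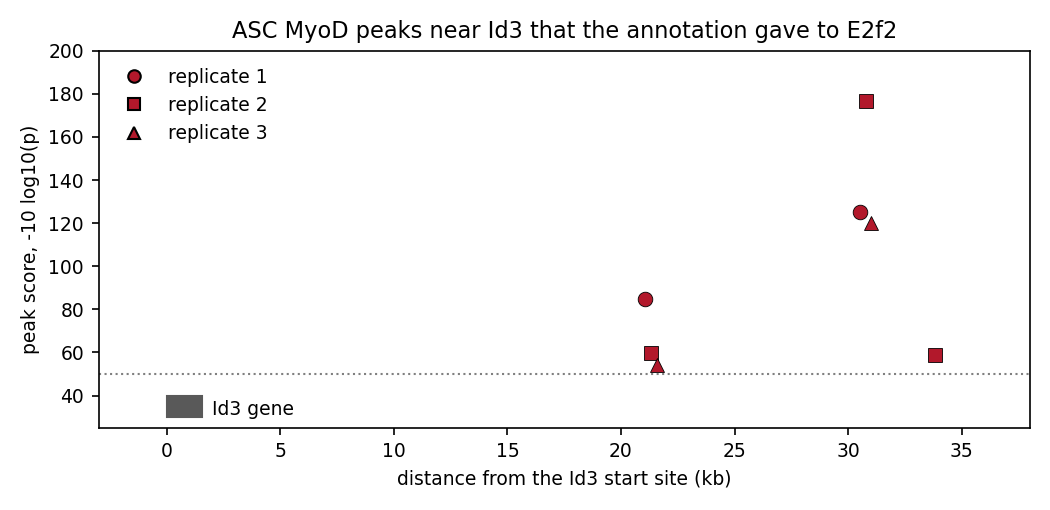
ASC MyoD peaks within 100 kb of Id3, by distance from its start site (x axis, kb; replicates of a region are set apart by 0.25 kb) and score (y axis, minus 10 times log10 of the p-value). Shapes mark replicates and the dotted line is a score of 50. Peaks of all 3 replicates occur at 2 positions, and the annotation gave all of them to E2f2.

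Near Id1, an ASC-specific region in an intron of Bcl2l1, a gene for a survival factor, lay 72.9 kb away (chromosome 2, 152810003 to 152810688, scores 73.8 and 53.6 in ASC MyoD replicates 1 and 3), and a distal peak given to Cox4i2 at 29.1 kb was listed in replicate 2 only. Near Id4 the sole peak, 21.5 kb away, was in QSC MyoD replicate 1 with a score of 55.0. In all, 4 of the 10 genes (Tcf12, Tcf4, Id2 and Id3) had an ASC-specific MyoD region within 25 kb, against 9.07% of the 21883 RefSeq protein-coding genes. The same 4 had one within 50 kb, against 13.5%, and 5 had one within 100 kb (with Id1), against 21.6%.

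The Twist family genes had no peak of their own. Within 100 kb of Twist1 and Twist2, no library had a peak of any name. Near Msc, a distal peak 39.3 kb away with a score of 51.9 was listed in ASC MyoD replicate 1 only.

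Gene length differs widely within the group, and longer genes have more room for peaks. An ASC-specific MyoD region was given to 3 of the 10 genes, against 5.92% of the 21883 protein-coding genes, and to all 3 that had any MyoD peak, against 50.1% of the 3223 genes with one. At least 2 such regions were given to 2 of the 10 genes (Tcf4 and Id2), against 1.12% of protein-coding genes. With scores of at least 80 the ASC-specific MyoD regions numbered 3 over 3 genes, so neither Tcf4 nor Id2 kept 2. None of the 10 had an ASC-specific MyoG region, which 0.187% of protein-coding genes had. Among genes of at least 100 kb the share was 19.2%, and both members of this length (Tcf12 and Tcf4) had one. At least 2 such regions, as at Tcf4, were found for 5.68% of these long genes. Among genes under 10 kb the share was 1.84%, and 1 of 6 members (Id2) had one. At least 2, as at Id2, were found for 0.177% of these short genes. The distal Id2 region counted here lay 173 kb upstream and scored only 53.9 and 52.4, in 2 libraries. No chance test was made on these counts, since the genes were chosen with earlier results known.

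Ranks within a list do not depend on the scale of the scores. On a percentile scale from the lowest to the highest score of a list, the peaks at these genes had medians of 78.6, 61.0 and 71.1 in ASC MyoD replicates 1, 2 and 3 (mean 70.2 ± 8.84, SD, n = 3), where all peaks have a median of 50 by construction. The lowest and highest were 11.0 and 99.0 in replicate 1, 38.6 and 99.1 in replicate 2, and 10.6 and 99.7 in replicate 3. Among peaks with a score of at least 80 the mean of the medians was 49.6. The median of the mean ranks over the 5 ASC-specific regions was 66.8, against 55.5 over all 1976.

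A further 100 helix-loop-helix and E-box genes in 7 lists give the wider setting. Of these, 11 had an ASC-specific MyoD region, against 5.92% of the 21883 protein-coding genes. An ASC MyoD peak was listed at 22, an ASC MyoG peak at 5 and no peak in any library at 74. Shares over all protein-coding genes were not computed for these last counts. Among the 4 myogenic regulatory factor genes, Myod1 and Myog had ASC-specific MyoD regions, while Myf5 and Myf6 had no peak. Myod1 (ENSMUSG00000009471) had 3 such regions, all distal intergenic, whose mean scores over the 3 ASC libraries were 162 ± 74.5, 149 ± 83.4 and 108 ± 41.4 (SD, n = 3). The Tcf12 intron 13 region scored higher than each of them in every ASC MyoD library. The Myog region lay at its promoter and scored close to the threshold (52.5 ± 2.47, n = 2).

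Of 12 Hes, Hey and Bhlhe repressor genes, 2 had an ASC-specific MyoD region. Hes6, whose product counters Hes1, had a promoter region (mean score 137 ± 25.8, SD, n = 3), and Heyl, a Notch target, had a distal region (102 ± 4.76). Of 13 genes of the Myc and Mad network, Max, the partner of Myc, and Mycn had a distal region each (83.5 ± 16.0, n = 3, and 72.0 ± 29.2, n = 2). Of 10 bHLH zipper genes, Srebf2, a regulator of sterol synthesis, had a promoter region (221 ± 155, n = 3).

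Of 16 bHLH PAS genes, the clock gene Arntl had an intron region (111 ± 44.1, n = 2). Of 33 other tissue-restricted bHLH genes, Atoh8 had an ASC-specific MyoD region (intron, 142 ± 34.7, n = 3). Of 12 genes for E-box competitors and helix-loop-helix binders, the repressor Zbtb18 had a distal region (138 ± 45.3, n = 3) and Zeb2, which represses from E-boxes, had a pair of intron regions (75.8 ± 16.1 and 68.6 ± 23.2, n = 2 each). Over these 7 lists the median of the mean ranks was 74.1 over 14 regions.

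**Figure D4:**
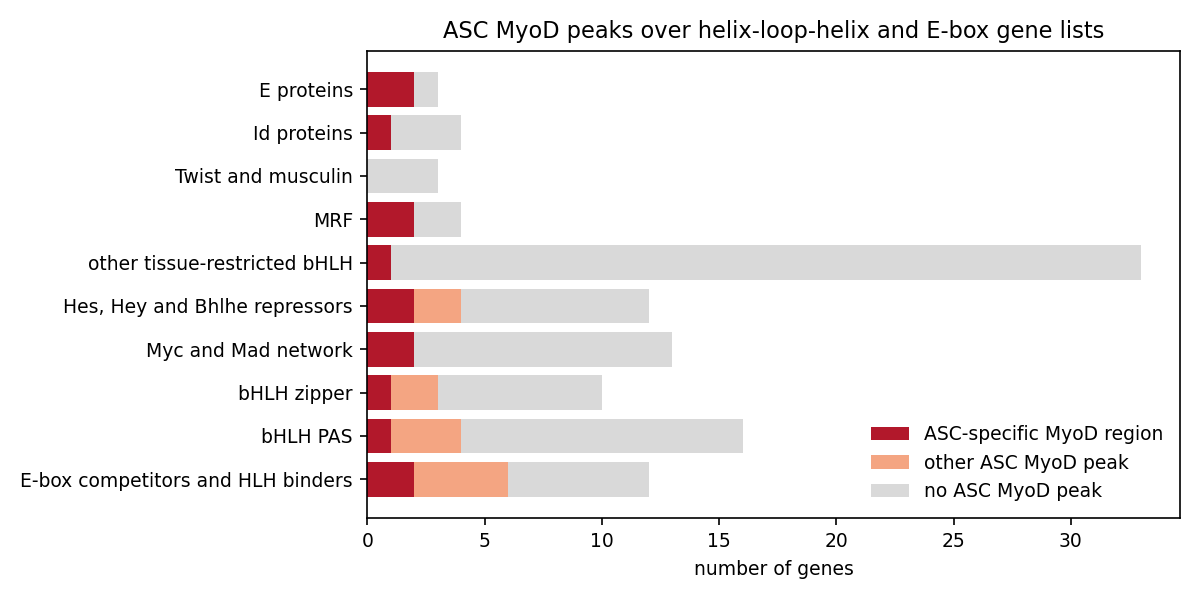
Number of genes (x axis) in each list (y axis; MRF, myogenic regulatory factors) with an ASC-specific MyoD region, with another ASC MyoD peak only, or with no ASC MyoD peak. The E protein list has 2 of 3 genes with an ASC-specific region, the Id list 1 of 4 and the Twist and musculin list none of 3.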

How the data were processed

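ChIP-seq peak lists of 12 libraries were used. The submitters' processing notes name BWA 0.7.5, MACS, deepTools 3.5.0 and mm10. The deposited score of each peak is minus 10 × log10(p) from MACS, and peaks were called by the authors in each library separately. Which MACS version was run, whether the 2 inputs (not analysed here) served as controls, and any filter are not given in the sources used here. The deposited gene, gene part, start and end (unit: other, positions in bp) were used as given. Peaks overlapping by at least 1 bp were joined into regions. Libraries were relabeled exhaustively to test differences of group means (exact permutation, two-sided), with Benjamini-Hochberg adjustment over 8 tests. Gene spans and promoter sequences were from RefSeq (GRCm38.p6), where all 10 symbols matched. The steps were tested on simulated peak lists. Python 3.11.15, pandas 2.3.3 and scipy 1.17.1 were used. All 10 genes and every region of theirs were named, as were up to 15 genes of the other lists by score rank. The members, lists and rules were chosen with earlier results of these data known. Alternatives were a score of at least 80 (a p-value of 1e-08), distal intergenic peaks left out, chromosomes 1 to 19 and X, merged peaks, a gap of up to 500 bp, 50% overlap of both peaks, a peak in all 3 or at least 1 library, the replicate block, and leaving out each library.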

Additional observations from a re-analysis of the deposited data

How the results depend on the processing

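Of the recomputed values, 3 changed direction. The permutation tests of 3 libraries against 3 could not reach 0.05, so staying above it says nothing about stability. With scores of at least 80, ASC-specific MyoD regions at these genes numbered 3 of 4 rather than 5 of 7 (50.6% rather than 44.0% of all MyoD regions), the difference in peaks between ASC MyoD and ASC MyoG was 3 rather than 4.67, the mean of the median ranks was 49.6 rather than 70.2, and the share difference between ASC MyoD and ASC MyoG was -0.00437 points rather than 0.154. With a peak in at least 1 library enough, 1 of 1 MyoG region was ASC-specific rather than 0, as were 80.2% of all 2198 MyoG regions. Without single libraries, the share difference between ASC MyoD and QSC MyoD ranged from -0.0833 to 0.209 points (0.0142 with all), against 0.339 with scores of at least 80 and 0.284 without distal intergenic peaks, both of which remove the single QSC peak, and the MyoG difference in peaks from 0 to 0.5. The cause of the other changes was not tested. With single libraries left out, ASC-specific MyoD regions ranged from 4 to 5, and genes with such a region stayed at 3. In the same settings, the differences in MyoD peaks ranged from 4.5 to 5 and in genes from 2.5 to 3. The share difference between ASC MyoD and ASC MyoG then ranged from 0.126 to 0.209 points. With a peak in at least 1 library enough, 6 of 7 MyoD regions were ASC-specific, against 91.0% of all 4488. As a replicate block, differences within replicate numbers were the same by arithmetic (4.67 peaks for MyoD, 0.333 for MyoG), with exact sign-flip p-values of 0.25 (the smallest possible) and 1. Deviations of log2 peak number of same-numbered libraries correlated between -0.986 and 0.999 over the 6 pairs of groups, with 0.999 for ASC MyoD and ASC MyoG. Each value rests on 3 replicate numbers and cannot tell whether the libraries were paired. The sources do not state pairing, so the main tests were unpaired and the replicate block was the alternative. The comparison of the ASC minus QSC difference between factors was added after seeing the data. Unknown read depth limits every statement on missing peaks.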
